A study of Vicia sativa with 8 samples.

Results

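Among the 71553 unigenes of the common vetch floral transcriptome, 72 photosystem and light-harvesting unigenes were analysed. A unigene, the transcript unit of a de novo assembly, was chosen when the description of its best match in the nr protein database named a photosystem, a light-harvesting or chlorophyll a/b protein, an oxygen-evolving protein or plastocyanin. No expression value entered this rule, but it was set with earlier results of these data known. The members were 150 to 1662 bp long with a median of 343 bp, against a median of 302 bp over all unigenes, and each had 52 to 14316 reads summed over the 8 libraries. Every member is accounted for, 66 were detected in all 8 organs, and 70 had at least 100 reads.

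Common vetch (Vicia sativa) is a legume of the Papilionoideae with a zygomorphic flower, and all material came from the cultivar Lanjian 3. Sepals, the 3 petal types (dorsal, lateral and ventral), stamens and carpels were dissected from flowers at floral stage 12, late pre-anthesis, of plants grown for about 45 days, and roots and leaves were taken from seedlings 2 weeks old. The floral organs were pooled over flowers of many plants and each organ gave 1 library, so that no test between organs exists, the values compare libraries, and the 95% intervals cover counting error only. Organ and plant age cannot be told apart in any comparison of a floral organ with leaves. Expression is given as RPKM, the uniquely aligned reads scaled to the length of the unigene and to the total of uniquely aligned reads of the library.

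In oxygenic photosynthesis, photosystem II oxidises water and photosystem I reduces ferredoxin, and the cytochrome b6/f complex passes electrons between them. Both photosystems carry antennae of nuclear-encoded chlorophyll a/b proteins, and their reaction-centre and core antenna proteins are encoded largely in the plastid genome, so that each complex is built from the products of 2 genomes. Leaves are the main photosynthetic organ, sepals and young carpels are usually green, and petals and roots usually carry few chloroplasts.

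By the protein that the annotation names, 22 members were plastid-encoded, fragments of 11 plastid genes, and 45 were nuclear-encoded. The other 5 had a plastocyanin-like domain, the mark of a family of copper proteins of the cell surface that are not thylakoid electron carriers, and they are described apart. No member was annotated as plastocyanin itself or as oxygen-evolving enhancer protein 1. The annotation gave a GO cellular component to 28 members, and for 26 of these it named the thylakoid, a photosystem, the plastid or the chloroplast. The 72 members had 67 distinct nr matches, and only for 3 members was the match first named from pea, soybean or chickpea (Pisum, Glycine or Cicer), so that a protein name is a similarity and not an identified vetch gene. Several unigenes can be pieces of 1 gene, and reads shared between near-identical light-harvesting genes were not counted, which makes levels within that family uncertain.

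The psaB unigene Unigene65647 was the only member with qRT-PCR primers in the study, and the qRT-PCR measurements were not analysed here. Its primers are shown because they were the only nucleotide sequences of a member in the sources used here.
psaB Unigene65647 forward primer: ccaaaagcaagcatgacatc
psaB Unigene65647 reverse primer: agttgggccagcctatttct

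The 8 libraries held 45583537 uniquely aligned reads in all, each between 93.8 and 110.1% of the median library, so that depth differed little among organs. Unigenes annotated as PISTILLATA and APETALA3, the B-class regulators of petals and stamens, summed to 819 to 937 RPKM in the petal types and 626 RPKM in stamens, and to no more than 11.8 RPKM in the other organs. Of 36 unigenes annotated as pollen-specific or pollen allergen, 9 had at least 30 reads in stamens and at least 10-fold more RPKM there than in sepals, carpels, roots and leaves. The ventral petals held these 9 at 13.6 to 42.7% of the stamen RPKM with a median of 21.6%, against medians of 1.26% in dorsal and 0.404% in lateral petals. Of all 36, 14 were highest in stamens and 9 in carpels. The 36 summed to 953, 1060 and 2741 RPKM in dorsal, lateral and ventral petals and 7012 RPKM in stamens. Of the 3 unigenes looked up as leaf markers, the carbonic anhydrase Unigene43277 was highest in leaves, with 332 RPKM. It did not set leaves apart, with 314 RPKM in stamens, 156 to 193 in the petal types, 120 in sepals, 31.2 in roots and 10.7 in carpels. Unigene22537, annotated as the small chain of rubisco, had 822 RPKM in roots and 3.44 in leaves, and a second carbonic anhydrase, Unigene13657, had at most 6.83 RPKM in any organ.

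The members together took 0.804% of the reads in sepals, 0.316% in carpels, 0.030% in roots and 1.58% in leaves. Their summed RPKM was 25603 in sepals, 4990.4, 4140.1 and 4456 in dorsal, lateral and ventral petals, 3849 in stamens, 10423 in carpels, 828 in roots and 61809 in leaves. Leaves stood highest, sepals had 0.414 of the leaf sum and roots 0.0134, and sepals stood above carpels, carpels above the petal types and stamens, and all of these above roots, each by more than counting error. In whole organs a smaller share of green cells and less RNA in each of them cannot be told apart.

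The members did not share 1 pattern, and they divided by the genome that encodes them. The libraries were oligo(dT)-selected and plastid transcripts often lack poly(A) tails, so the plastid levels are those of captured RNA only. Whether this capture differed among organs was not tested. For the 45 nuclear-encoded members the summed RPKM was 18751 in sepals, 3445, 2638 and 3126 in dorsal, lateral and ventral petals, 2319.9 in stamens, 6914 in carpels, 563 in roots and 57534 in leaves. For the 22 plastid-encoded members it was 6208 in sepals, 725, 839.7 and 622 in dorsal, lateral and ventral petals, 1006 in stamens, 3207 in carpels, 129.8 in roots and 3886 in leaves. The nuclear sum was thus highest in leaves, whereas the plastid sum was highest in sepals, and carpels came close to leaves. The plastid sum was 0.331 of the nuclear sum in sepals, 0.464 in carpels, 0.434 in stamens, 0.199 to 0.318 in the petal types, 0.231 in roots and 0.0676 in leaves. A single unigene, annotated as ycf3 and described below, gave most of the plastid sum in stamens, and without it, a setting chosen after the values were seen, the ratios were 0.303 in sepals, 0.325 in carpels, 0.148 in stamens, 0.0952 to 0.190 in the petal types, 0.139 in roots and 0.0491 in leaves. The unigenes with the highest RPKM weigh most in these sums, and the counts of members below give each unigene the same weight.

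**Figure D1:**
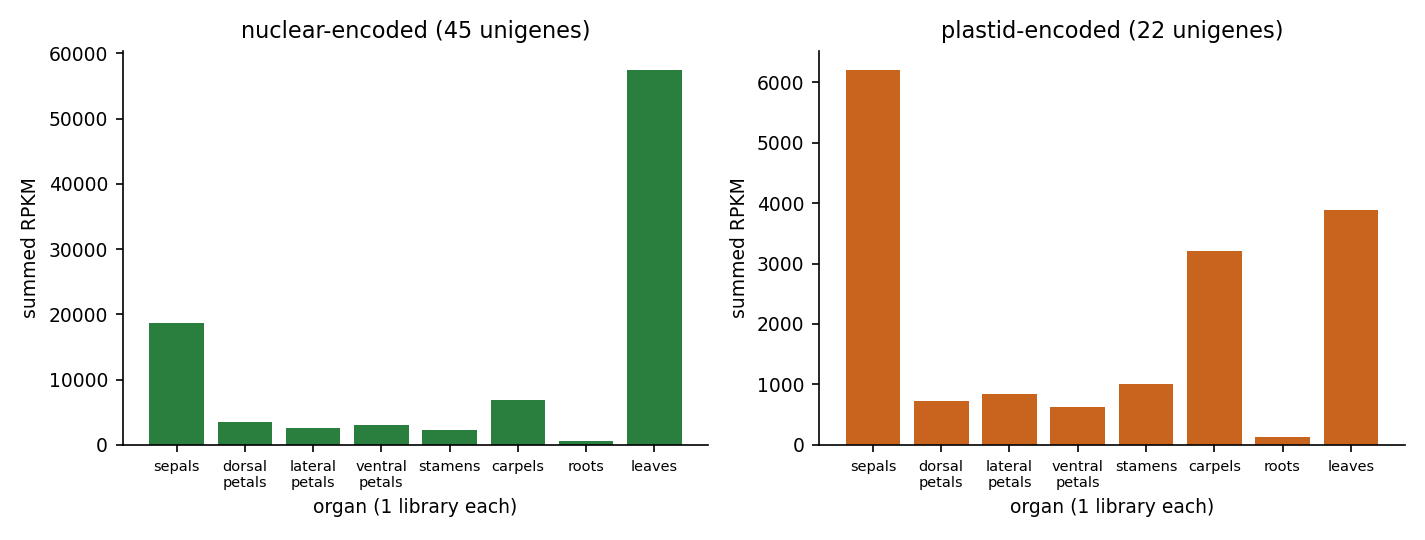
Summed RPKM of the nuclear-encoded (left, 45 unigenes) and plastid-encoded members (right, 22 unigenes) in each of 8 organs, 1 library each and without error bars because there are no replicates. The nuclear sum peaks in leaves at 57534, while the plastid sum peaks in sepals at 6208 and is 3207 in carpels and 3886 in leaves; the vertical scales differ.

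Counted by member, the organ of the highest RPKM was sepals for 24, leaves for 41, roots for 3, dorsal petals for 2 and carpels for 2. Of the 22 plastid-encoded members 19 were highest in sepals, 1 in carpels and 2 in leaves. Of the 45 nuclear-encoded members 39 were highest in leaves, 3 in sepals, 2 in roots and 1 in carpels. Over all 71553 unigenes, 9.06% were highest in sepals, 11.9% in leaves, 19.8% in roots, 10.3% in dorsal petals and 14.8% in carpels.

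The coefficient of variation over the 8 organs, for members with at least 100 reads, had a median of 1.51 in 43 nuclear-encoded members, 1.21 in the 22 plastid-encoded members and 0.660 in the 5 plastocyanin-like members. Leaves held a median of 55.5% of the 8-organ RPKM sum of a nuclear-encoded member, with a range of 10.3 to 95.1%. For plastid-encoded members the leaf share was 14.3 to 33.7% with a median of 25.1%. The 3 plastid-encoded members that were not highest in sepals were the psbA, psbM and ycf3 unigenes described below.

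**Figure D2:**
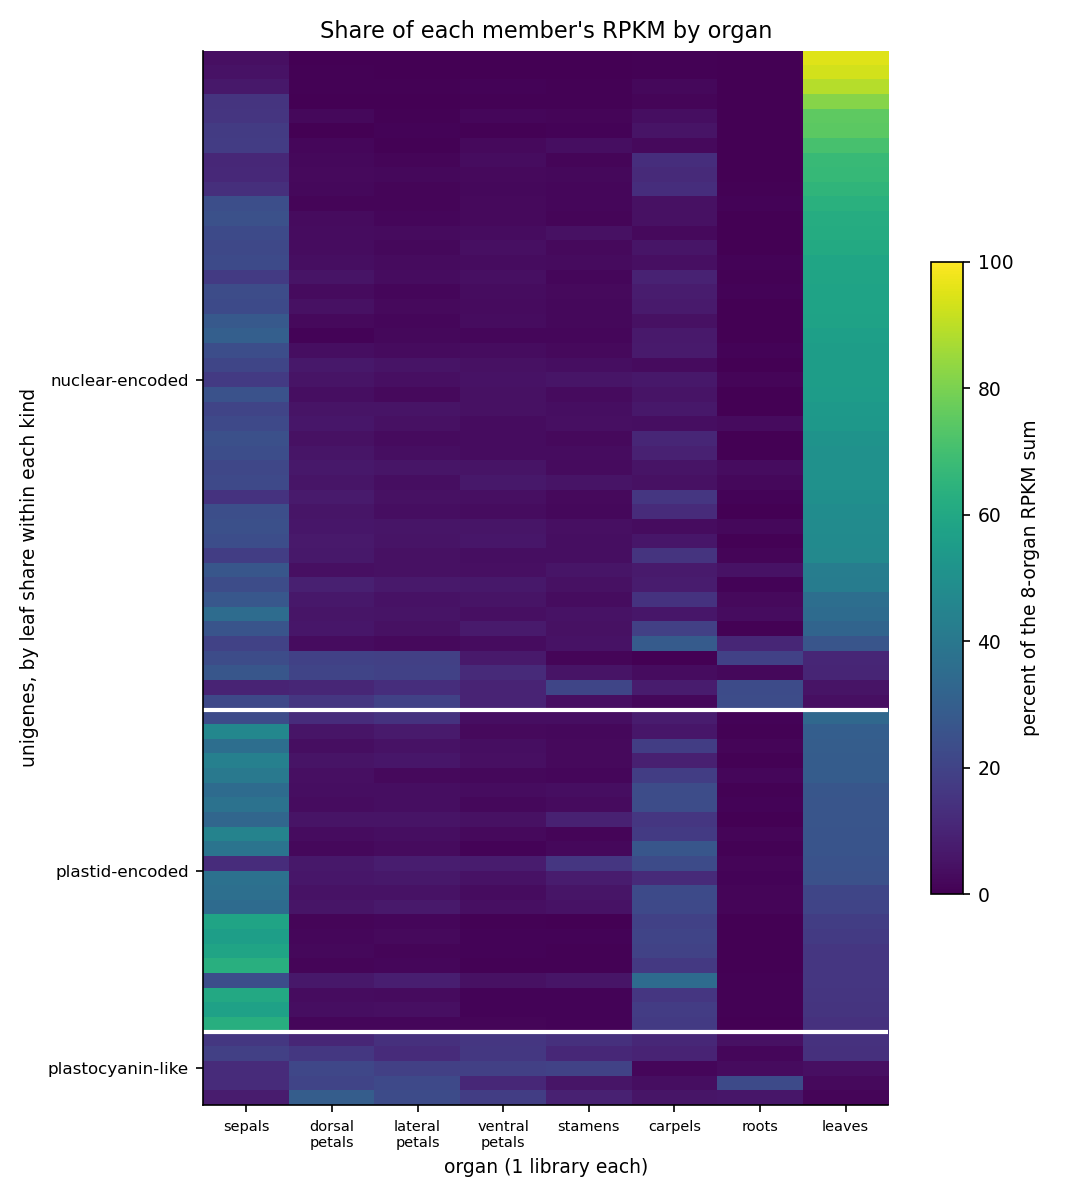
Share of each member's 8-organ RPKM sum found in each organ (colour, percent), with 1 row per unigene sorted by its leaf share within the nuclear-encoded, plastid-encoded and plastocyanin-like members. The leaf column is bright for the nuclear-encoded members (median leaf share 55.5%) and the sepal column for the plastid-encoded members. Of the plastocyanin-like members, 2 are highest in sepals, 2 in dorsal petals and 1 in roots.

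Organ enrichment was called by the rule of the study. An organ's RPKM had to be more than 2 times that of every other organ (Ratio) and to lie above the mean of the other organs by more standard deviations (Z-score) than the limit set there. In leaves 33 of 72 members were enriched, where 4.03% of all unigenes were, and all 33 were nuclear-encoded. In sepals 7 of 72 members were enriched, against 1.20% of all unigenes. The 7 were 4 unigenes annotated as psaB and 3 as psaA. Compared with the floral organs only, 45 members were enriched in sepals (5.73% of all unigenes), and with a Ratio above 4 none was in sepals (0.245%) and 9 were in leaves (1.18%). In the petals as 1 category the plastocyanin-like Unigene41049 was enriched, 1 member where 4.95% of all unigenes were called, and 0 with a Ratio above 4 (1.87%). No member was enriched in dorsal, lateral or ventral petals, for which the rule called 0.646, 0.608 and 1.29% of all unigenes, or in stamens (3.93%), carpels (5.61%) or roots (6.18%).

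Downregulation needed less than 0.5 of the highest RPKM elsewhere and a Z-score under -1.5. Because RPKM cannot fall below 0, this Z-score is out of reach where the other organs vary widely about their mean. The median coefficient of variation was 1.51 in nuclear-encoded and 1.21 in plastid-encoded members, so few calls do not mean little lowering. It took 1 member in stamens (5.39% of all unigenes), 3 in carpels (17.5%) and 3 in roots (4.29%), and none in sepals (0.692%), in petals as 1 category (0.872%), in dorsal, lateral or ventral petals alone (0.577, 0.746 and 0.766%) or in leaves (8.39%). The 3 in carpels were the plastocyanin-like Unigene51059, the PsbP-annotated Unigene3406 and the APO4 unigene Unigene54201, and both unigenes other than Unigene51059 were named after their values were seen.

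Against leaves, each organ was compared by the ratio of RPKM, for unigenes with at least 10 reads summed over the 2 libraries. In sepals 13 of 72 members were at least 2-fold higher and 33 at least 2-fold lower, where 29.3% of all tested unigenes were higher and 10.1% lower. The median log2 ratio was -0.88 for the members and 0.45 for all unigenes. Split by genome, 7 plastid-encoded members were higher and none lower with a median of 0.61, and 3 nuclear-encoded members were higher and 33 lower with a median of -1.31. The 7 were the enriched psaA and psaB unigenes, and the other members higher in sepals were Unigene3406, Unigene50172 and Unigene54201 and 3 plastocyanin-like unigenes. The plastid median therefore lay only slightly above that of all unigenes. Of the nuclear-encoded members 24 fell between 0.25 and 0.5 of the leaf RPKM and 9 below 0.25.

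In these oligo(dT)-selected libraries, carpels gave the widest gap between the 2 genomes. There 41 of 44 tested nuclear-encoded members were at least 2-fold lower than in leaves and none higher, with a median log2 ratio of -3.04, whereas 4 of 22 plastid-encoded members were lower and 1 higher, with a median of -0.05. Over all unigenes 34.9% were lower in carpels and 31.1% higher, with a median of -0.16. Against sepals, carpels had 0 of 72 members at least 2-fold higher and 51 lower, where 19.1% and 41.7% of all unigenes were, and sepals exceeded carpels in 66 of the 72. Rescaling the libraries by TMM factors, which allow for differences in RNA composition, shifted every log2 ratio to leaves by -0.09 in carpels, -0.37 in stamens and -0.47 to -0.55 in the other organs. After this the plastid medians were 0.15 in sepals and -0.14 in carpels, and 17 of 22 plastid-encoded members had a higher RPKM in sepals than in leaves, against 20 without it.

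In the petals, stamens and roots nearly every photosynthetic member was below leaves. Dorsal petals had 6 of 72 members at least 2-fold higher and 63 lower, beside 34.3% higher and 16.5% lower over all unigenes. Lateral petals had 5 higher and 62 lower of 72 (34.1% and 17.7%), and ventral petals 3 higher and 63 lower of 71 (35.5% and 17.4%). The members that were higher were 3 plastocyanin-like unigenes in each petal type, the APO3 and APO4 unigenes in dorsal and lateral petals, and the PsbP-annotated Unigene50172 in dorsal petals. In stamens 4 of 71 were higher and 64 lower (35.7% and 24.4%), and in roots 4 of 72 were higher and 66 lower (36.8% and 20.7%). All 22 plastid-encoded members were at least 2-fold lower in dorsal petals, ventral petals and roots, and 21 in lateral petals and stamens. The plastid median log2 ratios were -2.65, -2.47 and -3.33 for dorsal, lateral and ventral petals, -3.58 for stamens and -5.23 for roots. Nuclear-encoded members lay lower still, with medians of -3.46, -4.04 and -3.89 in the same petal types, -4.27 in stamens and -6.39 in roots.

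The photosystem I core is made of the P700 apoproteins A1 and A2, which bind the reaction-centre chlorophyll and are encoded by the plastid genes psaA and psaB. The psaB unigene with the highest level, Unigene60983, had 700.3 RPKM in sepals, 18.2, 19.9 and 15.1 in dorsal, lateral and ventral petals, 10.9 in stamens, 191 in carpels, 1.04 in roots and 159 in leaves. Its level in sepals was above that in leaves (4.41-fold, 95% interval 3.97 to 4.90). Unigene65647 had 503 RPKM in sepals, 10.8, 14.7 and 6.06 in dorsal, lateral and ventral petals, 2.49 in stamens, 168 in carpels, 2.04 in roots and 157 in leaves. Sepals were highest here too (3.21-fold, 95% interval 2.92 to 3.53 over leaves), carpels and leaves did not differ beyond counting error (1.07-fold, 95% interval 0.954 to 1.20), and the stamens held only 2.49 RPKM.

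The 4 psaB unigenes gave 3.21 to 4.41-fold more RPKM in sepals than in leaves and the 4 psaA unigenes 1.71 to 3.95-fold. The fragments of each gene were less alike in stamens over leaves, with ratios of 0.0159 to 0.0688 for psaB and 0.0534 to 0.232 for psaA. In carpels over leaves the ratios were 1.06 to 1.24 for psaB and 1.04 to 1.20 for psaA. The low psaA ratio in sepals was that of Unigene70514, the longest of them, with 162 RPKM in sepals, 25.98, 31.0 and 18.7 in dorsal, lateral and ventral petals, 22.1 in stamens, 103 in carpels, 5.74 in roots and 95.2 in leaves. It was the one psaA or psaB unigene that was not called enriched in sepals. The median of the 8 core unigenes was 3.752-fold in sepals over leaves, 1.13-fold in carpels over leaves and 33.8-fold in sepals over the mean of the petal types.

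**Figure D3:**
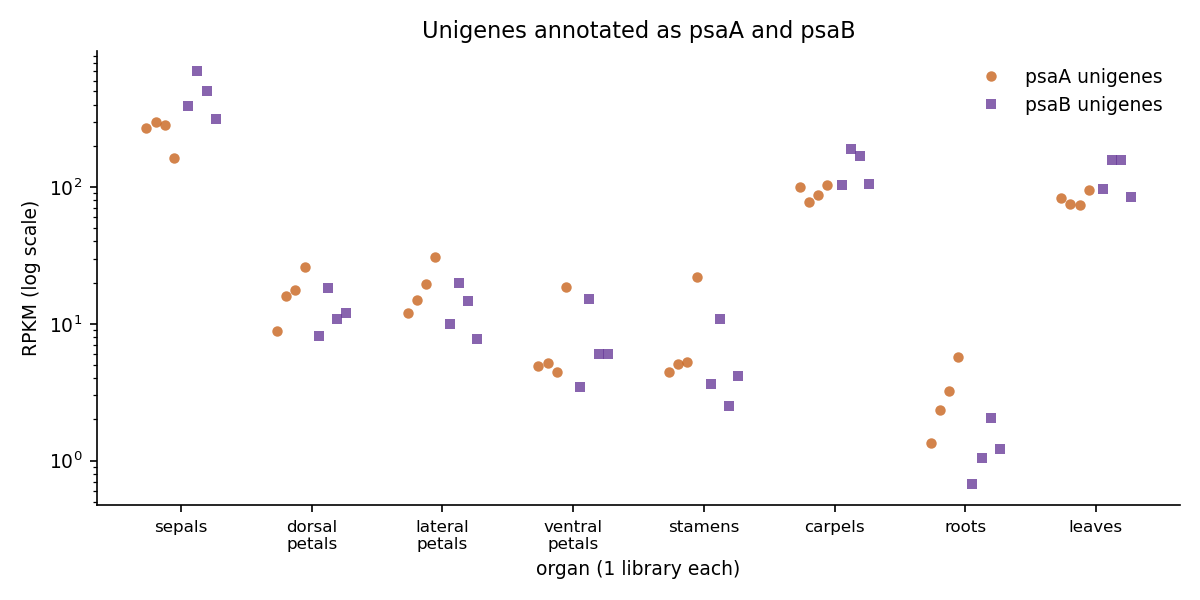
RPKM on a log axis of the 4 psaA (circles) and 4 psaB unigenes (squares) in each of 8 organs, 1 library each. All 8 are highest in sepals, at 162 to 700 RPKM, carpels and leaves overlap, and petals, stamens and roots lie lower.

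The photosystem II core was less biased to sepals than that of photosystem I. Its 11 plastid-encoded unigenes belong to psbA, psbB, psbC, psbD, psbH, psbM and psbZ, which encode the reaction-centre proteins D1 and D2, the core antennae CP47 and CP43 and small subunits. None was 2-fold higher or lower in sepals than in leaves, and their median was 1.496-fold. The psbD unigene with the most reads, Unigene71455, had 288 RPKM in sepals, 34.7, 39.3 and 25.8 in dorsal, lateral and ventral petals, 15.8 in stamens, 59.1 in carpels, 3.61 in roots and 193 in leaves. Sepals were higher than leaves (1.497-fold, 95% interval 1.41 to 1.59) and carpels lower (3.26-fold lower, 95% interval 2.96 to 3.6). CP43 was represented by Unigene68530 with 155 RPKM in sepals, 24.3, 26.6 and 20.1 in dorsal, lateral and ventral petals, 32.3 in stamens, 49.5 in carpels, 3.62 in roots and 103 in leaves. In stamens it stood above the psbB and psbD unigenes, though still below its own level in sepals and leaves.

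The small subunits varied more. Unigene56916, annotated as psbZ, had 285 RPKM in sepals, 46.4, 46.3 and 38.7 in dorsal, lateral and ventral petals, 81.0 in stamens, 138 in carpels, 2.10 in roots and 228 in leaves. Unigene13282, annotated as psbM, was the one plastid-encoded member highest in carpels, with 28.9 RPKM in sepals, 8.13, 10.5 and 5.63 in dorsal, lateral and ventral petals, 7.04 in stamens, 42.8 in carpels, 0.518 in roots and 19.2 in leaves, and there it exceeded leaves (2.23-fold, 95% interval 1.66 to 3.01). In contrast, the psbA unigene Unigene44669, chosen here after its values were seen, was lower in sepals than in leaves and had 72.1 RPKM in sepals, 39.6, 46.4 and 11.9 in dorsal, lateral and ventral petals, 11.9 in stamens, 23.4 in carpels, 2.57 in roots and 106 in leaves. The gene encodes D1, which turns over rapidly in light, and the unigene covered only 267 bp.

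The median RPKM of the photosystem I core unigenes was 1.57 times that of the photosystem II core unigenes in sepals and 1.56 times in carpels. In dorsal, lateral and ventral petals this ratio was 0.574, 0.564 and 0.436, in stamens 0.338, in roots 0.469 and in leaves 0.656. Sepals and carpels were thus the organs in which the photosystem I core stood above that of photosystem II.

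Ycf3 and Ycf4 are plastid-encoded proteins that assist the assembly of photosystem I. The ycf3 unigene, Unigene21297, had 533 RPKM in sepals, 268, 338 and 324 in dorsal, lateral and ventral petals, 662 in stamens, 962 in carpels, 51.7 in roots and 1062 in leaves. In every organ but sepals its RPKM was the highest of any plastid-encoded member, and in sepals it was lower than in leaves (1.99-fold lower, 95% interval 1.79 to 2.22). It was also the one plastid-encoded member downregulated in roots. The ycf4 unigene Unigene61173 was highest in sepals, with 496 RPKM in sepals, 50.01, 53.4 and 47.2 in dorsal, lateral and ventral petals, 51.1 in stamens, 328 in carpels, 9.95 in roots and 377 in leaves, and Unigene39410, a shorter ycf4 piece, gave 248 RPKM in sepals, 172 in carpels and 167 in leaves. The nuclear-encoded APO3 and APO4 members are named after a family of Arabidopsis organelle RNA-binding proteins. The name of that family refers to photosystem I, and whether these members act on photosystem I was not tested. Both were named here after their values were seen. They were rare with 82 and 52 reads in all, and their highest RPKM values, 11.6 and 5.66, were in roots.

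The nuclear-encoded photosystem I subunits were leaf-high, and the 3 described here were alike in sepals relative to leaves but less so in roots. Unigene25273, whose subunit is not named, had 1353 RPKM in sepals, 341, 347 and 303 in dorsal, lateral and ventral petals, 233 in stamens, 416 in carpels, 12.8 in roots and 3555 in leaves. Unigene30157, annotated as subunit V (PsaG, a peripheral subunit), had 1180.4 RPKM in sepals, 242, 135 and 156 in dorsal, lateral and ventral petals, 122 in stamens, 376 in carpels, 15.1 in roots and 3056 in leaves. PsaH, which docks light-harvesting complex II at photosystem I, was represented by Unigene6524 with 872 RPKM in sepals, 145, 120.0 and 134 in dorsal, lateral and ventral petals, 118 in stamens, 166 in carpels, 39.6 in roots and 2279.6 in leaves. In each of the 3 the sepals lay at about the same fraction of leaves, and 5 of the 6 members of this group were at least 2-fold lower in sepals than in leaves, with a median ratio of 0.384. The group summed to 4128 RPKM in sepals and 10676 in leaves, where the 8 psaA and psaB unigenes ran the other way with 2920.1 RPKM in sepals and 826 in leaves.

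Among the nuclear-encoded photosystem II subunits, Unigene4564, annotated as PsbY, a small membrane subunit, had 1070.2 RPKM in sepals, 332, 218 and 257 in dorsal, lateral and ventral petals, 120.1 in stamens, 601 in carpels, 25.2 in roots and 3668 in leaves. A second PsbY unigene, Unigene21801, gave 261 RPKM in sepals, 67.4 in carpels, 5.32 in roots and 530.4 in leaves. The PsbX unigene, Unigene62670, departed from them and was found mostly in leaves, with 15.2 RPKM in sepals, 1.27, 0.933 and 0.649 in dorsal, lateral and ventral petals, 1.02 in stamens, 1.68 in carpels, 0.314 in roots and 287 in leaves. It was 18.9-fold lower, 95% interval 14.3 to 25.5, in sepals than in leaves, and 170.4-fold lower, 95% interval 72.7 to 526, in carpels. Its low organs rest on few reads, 1 in roots to 5 in carpels.

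The 22 kDa protein PsbS, which is required for the thermal dissipation of excess light energy, was represented by 3 unigenes of 156 to 214 bp that gave like patterns. Unigene35364 had 837 RPKM in sepals, 191, 124 and 118 in dorsal, lateral and ventral petals, 80.04 in stamens, 433 in carpels, 2.40 in roots and 1696 in leaves. The other two, Unigene20647 and Unigene21292, had 581 and 417 RPKM in sepals, 256 and 164 in carpels and 1218 and 892 in leaves. In roots the 3 PsbS unigenes together had 5 reads, and Unigene21292, with none, was at least 276-fold lower than in leaves against a floor of 3 reads. The Rieske iron-sulfur protein of the cytochrome b6/f complex, Unigene43447, which entered because its description names photosystem II beside that complex, had 978 RPKM in sepals, 306, 249 and 218 in dorsal, lateral and ventral petals, 170.4 in stamens, 146 in carpels, 13.9 in roots and 2599.7 in leaves.

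The oxygen-evolving proteins PsbP and PsbQ sit on the lumenal face of photosystem II and stabilise the manganese cluster. Unigene4250, annotated as PsbP, had 75.6 RPKM in sepals, 23.6, 18.4 and 22.2 in dorsal, lateral and ventral petals, 24.9 in stamens, 27.9 in carpels, 5.74 in roots and 248 in leaves. Unigene67806, similar to oxygen-evolving complex protein 3, was much more leaf-biased, with 116 RPKM in sepals, 1.89, 2.89 and 4.30 in dorsal, lateral and ventral petals, 3.16 in stamens, 10.04 in carpels, 0.831 in roots and 622 in leaves, and it was 5.37-fold lower, 95% interval 4.91 to 5.87, in sepals. Unigene17634, annotated as enhancer protein 3, had 20.9 RPKM in sepals, 39.2 in leaves and no read in roots, at least 56.4-fold below leaves, and another of that name, Unigene54089, chosen after its values were seen, was at least 146-fold lower in roots. Unigene69769, described as related to an oxygen-evolving complex, did not follow the others, with 52.1 RPKM in sepals, 9.27, 6.58 and 9.15 in dorsal, lateral and ventral petals, 13.1 in stamens, 76.3 in carpels, 28.9 in roots and 70.7 in leaves, and its carpels and leaves did not differ beyond counting error (1.08-fold, 95% interval 0.942 to 1.24).

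A pair of PsbP-annotated unigenes ran against the group, and both were named after their values were seen. Unigene50172 was highest in sepals, with 58.8 RPKM in sepals, 45.3, 42.7 and 26.5 in dorsal, lateral and ventral petals, 11.3 in stamens, 7.61 in carpels, 4.91 in roots and 22.6 in leaves, and Unigene3406, with 152 reads in all, had 14.8 RPKM in sepals, 12.3, 12.0 and 4.33 in dorsal, lateral and ventral petals, 0.910 in stamens, 0 in carpels, 12.1 in roots and 6.85 in leaves. Unigene3406 was also the one member downregulated in stamens, and with no read in carpels it was at least 5.08-fold lower there than in leaves. PsbP belongs in plants to a family with members outside photosystem II, and which member each unigene is was not tested.

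Light-harvesting chlorophyll a/b proteins had the highest summed RPKM of the roles in leaves. The 14 unigenes summed to 8997 RPKM in sepals, 1064, 831 and 1285 RPKM in dorsal, lateral and ventral petals, 984 RPKM in stamens, 3525 RPKM in carpels, 271 RPKM in roots and 32376 RPKM in leaves. All 14 were below 0.25 of the leaf RPKM in every petal type, in stamens, in carpels and in roots, and 7 of the 14 were below it in sepals. Leaves held a median of 64.5% of their 8-organ sum, the highest median of the groups compared.

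Unigene29229, a chlorophyll a/b-binding protein with no type named, had the highest RPKM of any member in sepals, roots and leaves, with 3220.0 RPKM in sepals, 199.8, 178 and 331 in dorsal, lateral and ventral petals, 256 in stamens, 608 in carpels, 107 in roots and 8549 in leaves. Unigene21398 had 758 RPKM in sepals, 163, 129 and 166 in dorsal, lateral and ventral petals, 142 in stamens, 758 in carpels, 21.5 in roots and 4332 in leaves, and Unigene1827, similar to chlorophyll a-b binding protein 4, had 1245 RPKM in sepals, 189, 155 and 175 in dorsal, lateral and ventral petals, 135 in stamens, 392 in carpels, 57.7 in roots and 2959 in leaves. In Unigene21398 the sepals and carpels were alike, whereas in Unigene29229 and Unigene1827 sepals stood above carpels. The photosystem II antenna proteins split in the same way. Unigene39380, annotated as type III of light-harvesting complex II, part of its trimers, had 852 RPKM in sepals, 133, 93.6 and 143 in dorsal, lateral and ventral petals, 101 in stamens, 823 in carpels, 26.9 in roots and 4113 in leaves, and Unigene29974, annotated as the minor antenna protein CP24, had 920.4 RPKM in sepals, 111, 72.5 and 131 in dorsal, lateral and ventral petals, 102 in stamens, 295 in carpels, 33.9 in roots and 2289 in leaves.

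Some light-harvesting unigenes were found mostly in leaves. Unigene46106 had 103 RPKM in sepals, 0, 0.611 and 3.19 in dorsal, lateral and ventral petals, 0.670 in stamens, 13.9 in carpels, 0.616 in roots and 2369.5 in leaves. It was 23.1-fold lower, 95% interval 19.9 to 27.0, in sepals than in leaves, and 171-fold lower, 95% interval 111 to 276, in carpels, and with no read in dorsal petals it was at least 1267-fold lower there. Unigene38612, annotated as type I of light-harvesting complex II, had 166 RPKM in sepals, 11.2, 11.0 and 24.4 in dorsal, lateral and ventral petals, 11.2 in stamens, 54.7 in carpels, 1.48 in roots and 2265 in leaves, and it was 13.6-fold lower, 95% interval 12.0 to 15.6, in sepals. The photosystem I antenna, 2 unigenes annotated as type II of light-harvesting complex I, was likewise leaf-biased. Unigene58746 had 101 RPKM in sepals, 14.1, 4.23 and 11.6 in dorsal, lateral and ventral petals, 8.00 in stamens, 25.0 in carpels, 0.775 in roots and 498 in leaves, and Unigene24270 had 58.1 RPKM in sepals, 17.3 in carpels, none in roots and 253 in leaves. The exception was Unigene59002, named after its values were seen and similar to an algal light-harvesting protein, which with only 172 reads in all had 23.5 RPKM in sepals and 23.4 in leaves. The other 13 were higher in leaves than in sepals. Whether near-identical copies lost reads unevenly among organs was not tested.

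Assembly factors of photosystem II were lower in level and less leaf-biased than the light-harvesting proteins. HCF136 in Arabidopsis is needed to build the photosystem II reaction centre, and Unigene65971, similar to it, had 163 RPKM in sepals, 49.8, 42.9 and 39.9 in dorsal, lateral and ventral petals, 22.3 in stamens, 39.8 in carpels, 25.5 in roots and 389 in leaves. Unigene59374, annotated as Psb27, which acts in the assembly and repair of photosystem II, had 157 RPKM in sepals, 40.3, 26.8 and 44.3 in dorsal, lateral and ventral petals, 36.7 in stamens, 30.6 in carpels, 15.4 in roots and 357 in leaves. Unigene52974, annotated as Psb28, had 104 RPKM in sepals, 50.6, 32.4 and 30.2 in dorsal, lateral and ventral petals, 19.4 in stamens, 114 in carpels, 7.92 in roots and 357 in leaves. Psb28 was thus as high in carpels as in sepals, whereas HCF136 and Psb27 were lower in carpels. The 6 members summed to 772 RPKM in sepals, 297 in carpels, 83.4 in roots and 1902 in leaves, so that roots had 0.0438 of the leaf sum, and 0.00837 for the light-harvesting proteins.

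Fewer members differed 2-fold between petal types than between sepals and petals. Sepals were at least 2-fold above the mean of the petal types in 62 of 72 members and below it in 1 (17.4% and 21.1% of all unigenes), and the median was 6.60-fold. Dorsal over ventral petals gave 7 of 68 tested members at least 2-fold higher and 2 lower, with background shares of 9.24% and 11.9%. Of those higher, 6 were plastid-encoded, and the plastid median log2 ratio was 0.52 against 0.14 for nuclear-encoded members and 0.04 for all unigenes. Lateral over ventral petals gave 9 of 69 tested members at least 2-fold higher and 5 lower (7.97% and 11.6% of all unigenes). These were 8 of 22 plastid-encoded members higher and none lower, with a median of 0.66, and 1 of 42 tested nuclear-encoded members higher and 5 lower, with a median of -0.19. All 22 plastid-encoded members had a higher RPKM in lateral than in ventral petals. They are fragments of 11 genes of 1 genome and so are not independent. The share of all unigenes higher in lateral petals at any fold is not given here.

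Dorsal over lateral petals gave 1 of 67 tested members at least 2-fold higher and none lower (5.02% and 3.70%). Plastid-encoded members were slightly lower in dorsal petals, with a median of -0.19, and nuclear-encoded members slightly higher, with a median of 0.39. In dorsal petals 37 of 45 nuclear-encoded members exceeded their lateral RPKM, but 18 of 22 plastid-encoded members did not. Here too the share of all unigenes at any fold is not given. With at least 100 reads required, no member was 2-fold higher in dorsal or lateral than in ventral petals, and 1 was lower in lateral than in ventral petals. The share of all unigenes at that read limit was not computed. Ventral petals over stamens gave 8 of 68 tested members at least 2-fold higher and 4 lower (19.8% and 11.5%), with a median log2 ratio of 0.36. The 9 pollen-annotated unigenes picked above for a high stamen level stood at a median of 21.6% of that level in the ventral petal library. The part of pollen transcripts in these petal differences was not tested.

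**Figure D4:**
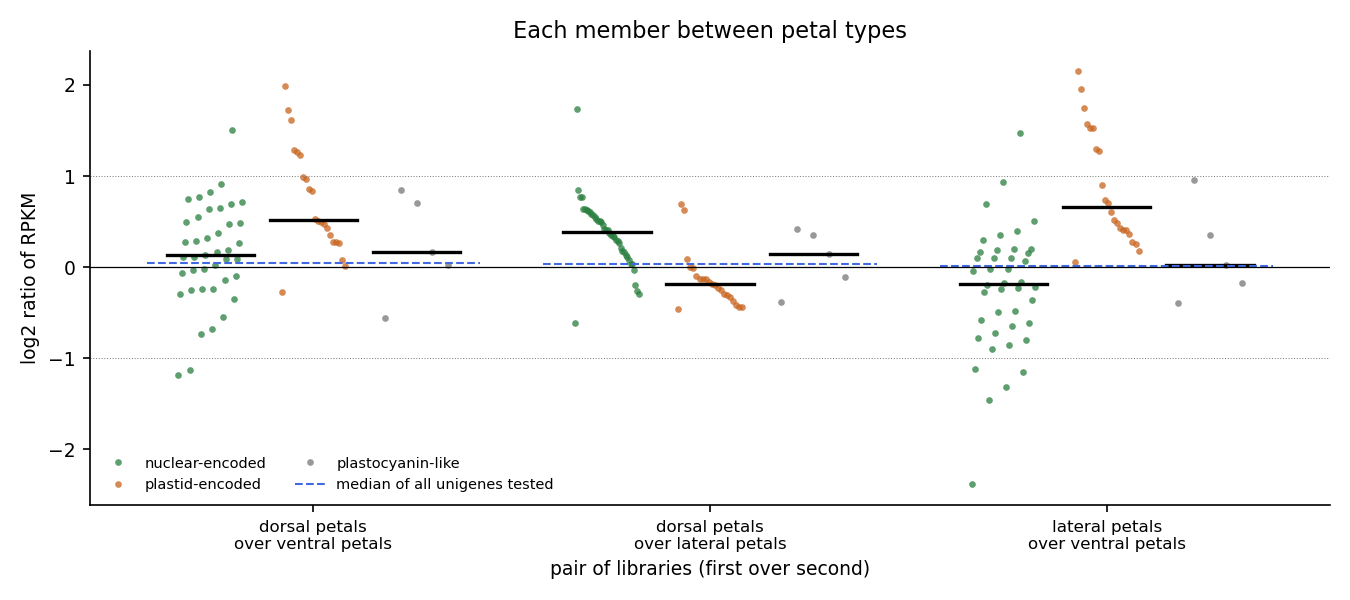
Log2 ratio of RPKM between petal types for every member with at least 10 reads in the 2 libraries (points), with medians of each kind (black bars) and of all tested unigenes (dashed blue); dotted lines mark a fold of 2. The median of the plastid-encoded members lies above 0 in lateral over ventral petals (0.66) and in dorsal over ventral petals (0.52), and slightly below it in dorsal over lateral petals (-0.19).

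The 5 plastocyanin-like members did not share a pattern, with 2 highest in sepals, 2 in dorsal petals and 1 in roots. Unigene41049 had 55.2 RPKM in sepals, 209, 163 and 128 in dorsal, lateral and ventral petals, 63.8 in stamens, 39.0 in carpels, 41.9 in roots and 9.92 in leaves. It was the one member enriched in petals, and dorsal petals exceeded leaves (21.0-fold, 95% interval 12.1 to 40.0). Unigene51059 was high in petals and stamens, with 113 RPKM in sepals, 194, 175 and 173 in dorsal, lateral and ventral petals, 182 in stamens, 15.9 in carpels, 28.1 in roots and 35.9 in leaves, and it was downregulated in carpels. Unigene53434 was high in every organ but roots, with 454 RPKM in sepals, 392, 294 and 387 in dorsal, lateral and ventral petals, 263 in stamens, 237 in carpels, 41.4 in roots and 332 in leaves. Unigene14875, the member with at least 100 reads that was highest in roots, had 11.9 RPKM in sepals, 19.5, 21.1 and 10.8 in dorsal, lateral and ventral petals, 5.40 in stamens, 3.40 in carpels, 21.5 in roots and 2.41 in leaves, and roots exceeded leaves (8.94-fold, 95% interval 5.33 to 16.0). The remaining unigene, Unigene66168, named after its values were seen, lay between 2.67 RPKM in roots and 9.94 in sepals. None of the 5 was enriched in leaves, and without them the petal sums were 3478 to 4170 RPKM.

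Further photosynthesis unigenes, 66 in all, were chosen by words of their names for the cytochrome b6/f complex, ferredoxin-NADP reductase, the chloroplast ATP synthase, rubisco and its activase, other enzymes of carbon fixation, and photorespiration. The words also took in 5 unigenes annotated as phosphoribulokinase/uridine kinase and 5 as rubisco N-methyltransferase, which need not be enzymes of carbon fixation. In sepals over leaves, 14 of 61 tested were at least 2-fold higher and 25 lower (29.3% and 10.1% of all unigenes), with a median log2 ratio of -0.86 beside -0.88 for the members. Here too the genomes differed, with 7 of 15 plastid-encoded unigenes higher and 2 lower (median 0.79), and 7 of 46 others higher and 23 lower (median -1.12). Carpels gave 6 of 61 higher and 42 lower (31.1% and 34.9% of all unigenes). In roots 12 of 63 were higher and 47 lower (36.8% and 20.7%), with a median of -4.42. Without those 10 unigenes, left out after the values were seen, 13 of 53 were higher and 25 lower in sepals, 5 of 53 and 36 in carpels, and 11 of 55 and 41 in roots.

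Cytochrome b6, the plastid-encoded core of the b6/f complex, was highest in sepals like most plastid-encoded members. Its unigene Unigene27828 had 704 RPKM in sepals, 406 in carpels, 20.5 in roots and 431 in leaves. Of 7 unigenes annotated as rubisco activase, which keeps rubisco active, 6 were at least 2-fold lower in sepals than in leaves and 1 higher. Among the lower ones Unigene46474 had 836 RPKM in sepals, 94.9 in carpels, 2.44 in roots and 3467 in leaves, and the exception, Unigene52160, had 125 RPKM in sepals and 55.6 in leaves. The plastid-encoded unigenes of the chloroplast ATP synthase were mostly leaf-high instead. Unigene38909, annotated as its alpha subunit, had 1177 RPKM in sepals, 303 in carpels, 45.6 in roots and 2980.4 in leaves. Unigene33813, Unigene34921 and Unigene6882 of that complex had 3927, 2233 and 1271 RPKM in leaves, against 2320, 1179 and 544 in sepals. Unigene42115, annotated as the beta subunit, went the other way with 258 RPKM in sepals and 191 in leaves. Against its name, Unigene22537, annotated as the small chain of rubisco, had 822 RPKM in roots and 3.44 in leaves. Another rubisco small subunit unigene, Unigene21340, had 810 RPKM in roots and 0 in leaves, and its nr match was from the alga Ankistrodesmus. The origin of this RNA was not tested. All unigenes named in this paragraph were chosen after their values were seen.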

How the data were processed

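The authors sequenced 1 oligo(dT)-selected library per organ from fragmented mRNA and aligned the reads to their own de novo assembly, made from the 8 organs together. The deposited tables give for each unigene the count of uniquely aligned reads, the RPKM the authors computed from it, the percent of the unigene covered by reads, and annotation text. For the aligner and for strand, not given in the sources used here, nothing was assumed, and plastid transcripts, which often lack poly(A) tails, were not compared with another RNA selection. Every member is counted by name match to that text, and roles and genome of origin were assigned from the named protein. Unigene sequences were not analysed here.

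RPKM was recomputed from the counts, 45583537 reads over the 8 libraries, and differed from the deposited RPKM by a relative 5.58e-09 at most. A unigene with no table entry in an organ was given 0 reads. Ratios of 2 organs carry exact binomial 95% intervals on the 2 read counts, a zero was set to a floor of 3 reads in a library, and shares and sums cover counting error only. With 1 library per organ no p-value was computed. Named are the 3 members with the most reads in each role, the 12 highest in leaves, up to 3 enriched in each other organ with at least 30 reads, the 3 highest and 3 lowest ratios to leaves per organ among members with at least 100 reads, and members with at least 100 reads that are highest in roots. Any other is said to be chosen after its values were seen. The members and all lists were chosen with earlier results of these data known. Of the organ lists, that by the word agamous (9 unigenes) also took in other MADS-box proteins and summed to 1391 RPKM in stamens and 574 in carpels, 616 to 821 in sepals and petals, 7.23 in roots and 37.5 in leaves. The 4 of them annotated as AGAMOUS or AGAMOUS-like protein had 144 to 435 RPKM each in stamens, 30.01 to 171 in carpels and at most 8.40 in any other organ. The root list (3 unigenes) summed to 1.73 to 20.5 RPKM in floral organs, 15.0 in roots and 0 in leaves. Python 3.11.15 (pandas 2.3.3 and numpy 2.4.6 for tables, matplotlib 3.10.9 for plots, scipy 1.17.1 for intervals) and, for TMM factors, R 4.3.3 with edgeR 4.0.16 were used. The enrichment call in leaves and the ratio of leaves to roots were run on simulated counts that differed among the other organs by counting error only. Downregulation, and variation among organs like that of the members, were not simulated. Alternatives were TMM scaling, other Ratio and fold limits, other read minimums, a pseudocount of 1, a population SD, floral organs only, and member subsets. The TMM counts by genome of origin, the ratio without ycf3 and the photosynthesis list without 10 unigenes were added after the values were seen.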

Additional observations from a re-analysis of the deposited data

How the results depend on the processing

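No sample was left out in turn. No paired analysis was possible because every organ has a single library and no test was made. Of 330 values recomputed for 80 results, 247 stayed within 1.5 times the count, or within counting error or a set bound for other values. The other 83 moved further. The cause of these moves was not tested beyond what each setting leaves out. The label reversed was given to 0 values. Counts, sums and ratios of sums have no sign to reverse, so for them this was fixed in advance. Low read numbers limit the petal comparisons and the members at 0 reads.

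Enriched members numbered 45 in sepals among the floral organs only (5.73% of all unigenes). With a Ratio above 4 they numbered 0 in sepals (0.245%), 9 in leaves (1.18%) and 0 in petals (1.87%), and without plastocyanin-like members 0 in petals. For the downregulated counts that follow, the share of all unigenes was not computed, so they show only how the member counts move. Downregulated members numbered 0 in stamens among floral organs only or with the Ratio against the lowest organ, 1 in roots without plastocyanin-like members, 2 in leaves with a population SD, and 1 in petals with a population SD or among floral organs only.

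For the settings in this and the next paragraph the share of all unigenes was not computed. The counts therefore show only how the member counts move. At a fold of 4 against leaves, 4 members were higher and 9 lower in sepals, and 3 were higher in dorsal petals, 2 in stamens and 0 in carpels. With at least 100 reads, 3 were higher in lateral petals and 1 each in stamens, carpels and roots. Between petal types at a fold of 4, dorsal over ventral petals gave 0 higher and 0 lower, dorsal over lateral 0 higher, and lateral over ventral 1 higher and 1 lower, and sepals over the petal mean gave 0 lower. With at least 100 reads, dorsal over ventral petals gave 0 higher and 0 lower, dorsal over lateral 0 higher, and lateral over ventral 0 higher and 1 lower. With no filter, dorsal over lateral petals gave 2 higher and 1 lower. TMM scaling left 7 plastid-encoded members with a higher RPKM in carpels than in leaves, against 11.

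Of the other photosynthesis unigenes in sepals over leaves, 3 were higher and 5 lower at a fold of 4, 5 were higher with TMM and 8 with at least 100 reads. Without the ycf3 unigene the plastid over nuclear ratio was 0.132, 0.190 and 0.0952 in dorsal, lateral and ventral petals, 0.148 in stamens and 0.139 in roots. In roots over leaves, 6 of the other photosynthesis unigenes were higher with at least 100 reads and the median log2 ratio was -5.03.

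With TMM scaling the summed RPKM was 23969 in sepals, 4421, 3716 and 4097 in dorsal, lateral and ventral petals, 12688 in carpels, 767 in roots and 79976 in leaves. With 1 unigene per nr match the summed RPKM was 24780.2 in sepals, 4673, 3889 and 4234 in dorsal, lateral and ventral petals, 3728 in stamens, 10136 in carpels, 772 in roots and 61069 in leaves. Without plastid-encoded members the summed RPKM was 19395 in sepals, 4266, 3300.5 and 3834 in dorsal, lateral and ventral petals, 2843 in stamens, 7216 in carpels, 698 in roots and 57922 in leaves. Without the highest unigene of each organ the summed RPKM was 22383 in sepals, 4598, 3793 and 4069 in dorsal, lateral and ventral petals, 3187 in stamens, 9461 in carpels, 721 in roots and 53259.7 in leaves. Without plastocyanin-like members the summed RPKM was 24959 in sepals, 4170.0, 3478 and 3748 in dorsal, lateral and ventral petals, 3326 in stamens, 10121 in carpels and 693 in roots. Leaves stayed highest and roots lowest in each.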
